A study of Mus musculus with 4 samples.

Results

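The deposited hashtag libraries of YUMMER1.7 tumors hold 5 hashtags, and the 5th is named anti-PD1-MIF-DDT. The sample labels list the other 4 arms only (isotype antibody, anti-PD-1, anti-MIF, and both antibodies together), so the agent, dose and animals behind the 5th hashtag, here called the DDT arm, are not given in the sources used here. The comparison is the DDT arm against the arm of both antibodies, here called the combination (anti-PD-1/anti-MIF), whose hashtag name is contained in that of the DDT arm. Cells were barcodes with 200 to 5000 genes and at most 5% mitochondrial UMIs (unique molecular identifiers, the counted transcripts). A cell belonged to the arm of its most abundant hashtag, where that hashtag had at least 3 times the UMIs of the next. By this rule 1396 of 6625 assigned cells were of the DDT arm and 764 of the combination. In the long treatment cohort (2 weeks, 4 doses, tumors taken at day 21) the DDT arm had 325 cells and the combination 288. The short treatment cohort (1 week, 2 doses, day 14) had 1071 and 476. Each level below is given for the combination first and the DDT arm second, long cohort before short cohort. Shares of cells are given for the DDT arm first.

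YUMMER1.7 is a mouse melanoma line with many mutations that is sensitive to checkpoint inhibitors. It was grown under the skin of wild-type C57BL/6J mice 7 to 8 weeks old, with treatment from day 7 (anti-PD-1 at 10 mg/kg, anti-MIF at 20 mg/kg or isotype antibodies). Tumors were sorted for CD45, the leukocyte surface marker, and 80% CD45+ and 20% CD45- cells were recombined before 5′ single-cell RNA-Seq (scRNA-Seq), so shares of cells also depend on that mixture. The arms of a cohort were pooled into 1 library, so an arm in a cohort is a single hashtagged sample. How many mice gave the cells of an arm is not given in the sources used here, and no value within a cohort has a replicate.

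PD-1, encoded by Pdcd1, is an inhibitory receptor of activated T cells, and its ligand PD-L1, encoded by Cd274, is carried by myeloid and tumor cells. Macrophage migration inhibitory factor (MIF) is a cytokine that signals through the surface receptor CD74 together with CD44, and through the chemokine receptors CXCR2 and CXCR4. D-dopachrome tautomerase, encoded by Ddt and abbreviated DDT, is a homolog of MIF that also binds CD74. Whether the letters in the hashtag name refer to that protein is not stated.

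The hashtag sequences are shown because they alone define the arms. Each is an oligonucleotide of 15 bases on an antibody, read 5′ to 3′. In the first 4, capitals mark the bases that equal those of the DDT hashtag at the same position, and the DDT hashtag, the reference, is in lower case throughout.
isotype: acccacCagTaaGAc
anti-PD-1: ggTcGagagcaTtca
anti-MIF: CTTgccgcaTGTcAt
anti-PD-1/anti-MIF: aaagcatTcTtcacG
DDT: ctttgtctttgtgag
The DDT and combination hashtags share 3 bases and differ at 12. The closest hashtag to that of the DDT arm is that of anti-MIF, with 7 shared bases and 8 mismatches.

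Separation of the hashtags was better in the short cohort. In the long cohort, DDT cells carried a median of 1624 UMIs of their own hashtag against 207 of the next (median ratio 7.66). For the short cohort these were 965 against 43 (median ratio 21.4). Combination cells had median ratios of 6.64 and 20.0, close to those of the DDT arm. The isotype arm of the long cohort was the least separated, with a median ratio of 4.41 and 51 of its 159 cells (32.1%) at a ratio between 3 and 4. Of the DDT cells, 36 (11.1%) in the long and 24 (2.24%) in the short cohort had a ratio between 3 and 4, just inside the threshold. Another 29 and 30 barcodes had the DDT hashtag on top with a ratio of 2 to 3, just outside it. Among barcodes that passed the cell filter, 371 of 2424 (15.3%) in the long and 323 of 4895 (6.6%) in the short cohort were assigned to no arm, and 20 barcode sequences occur in both libraries.

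Depth per cell was close between the 2 arms. The DDT arm held 2904516 gene UMIs in the long and 6746319 in the short cohort, and the combination 2658344 and 2820881. The median was 8727 UMIs per DDT cell and 8969 per combination cell in the long cohort. The short cohort had 5957 and 5677. The median mitochondrial share was 0.416% against 0.528%, and 0.646% against 0.775%, the lower value each time in the DDT arm.

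Defining melanoma markers were at or near 0 in both arms, although CD45- cells had been mixed in. The paper names YUMMER1.7 cells among the cell types of its interaction results, and whether tumor cells were present in these arms was not tested here. Mlana and Sox10, which mark melanocytic cells, were at 0 UMIs in all 10 arm samples, and Pmel had 0 UMIs in the DDT arm in the long cohort and 3 in the short cohort. The melanoma marker list of 8 genes summed to 47.4 against 60.6 CPM (long) and 77.3 against 71.7 CPM (short), where CPM are a gene's UMIs scaled to a common total over the cells summed. Its most abundant gene was Mitf, which macrophages also express. Y-linked Ddx3y was present in every arm, and the female transcript Xist had at most 1 UMI in any arm sample. After cells were thinned to 2000 UMIs, at least 1 UMI of Ptprc, which encodes CD45, was found in 76.0% of DDT cells (95% interval 70.8 to 80.7) and 56.6% of combination cells (50.4 to 62.6) in the long cohort, and in 77% (74.2 to 79.6) and 79.5% (75.4 to 83.2) in the short cohort. Intervals of shares are exact Clopper-Pearson 95% intervals, those of ratios exact conditional binomial ones, and both cover counting error only.

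The first question was whether T cells and myeloid cells made up the same share of both arms. Cells were gated on 2 markers: Cd3e, a subunit of the T cell receptor complex, and Lyz2, the lysozyme of monocytes, macrophages and neutrophils. The T gate held cells with at least 1 Cd3e UMI and fewer than 5 Lyz2 UMIs, and the myeloid gate cells with at least 5 Lyz2 UMIs and no Cd3e UMI.

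The DDT arm had a smaller share of T-gate cells and a larger share of myeloid-gate cells than the combination in both cohorts, and without thinning these shares were the smallest and the largest of the 5 arms. In the long cohort, 21 of 325 DDT cells (6.46%, 95% Clopper-Pearson interval 4.04 to 9.71) and 43 of 288 combination cells (14.9%, 11 to 19.6) were in the T gate. The short cohort had 46 of 1071 (4.30%, 3.16 to 5.69) and 39 of 476 (8.19%, 5.89 to 11). The difference was -8.47 percentage points in the long and -3.90 points in the short cohort, and in neither cohort did the intervals of the 2 arms overlap. The isotype arm of the short cohort, at 4.57%, lay within the interval of the DDT arm.

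Myeloid-gate cells made up 218 of 325 DDT cells (67.1%, 61.7 to 72.2) and 137 of 288 combination cells (47.6%, 41.7 to 53.5) in the long cohort. They made up 728 of 1071 (68.0%, 65.1 to 70.8) and 269 of 476 (56.5%, 51.9 to 61) in the short cohort. The DDT share was thus nearly the same in both cohorts, while the other 4 arms spread from 30.8% to 55.2% in the long and from 56.5% to 61.4% in the short cohort. Cells of neither gate were fewer in the DDT arm, at 25.2% against 36.8% and 27.5% against 34.9%. Cells positive for both markers were rare in both arms, 4 and 3 in the DDT arm and 2 and 2 in the combination.

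Since a gate of a fixed number of UMIs depends on depth, cells were also thinned to 2000 UMIs, which left out 21 and 112 DDT cells and 21 and 47 combination cells. The T gate then held 5.59% against 14.6% in the long and 3.55% against 7.46% in the short cohort (DDT against combination), and the myeloid gate 53.3% against 34.5% and 58.0% against 44.5%. At this depth the isotype arm of the short cohort had the smallest T share of the 5 arms, 2.96% (19 of 642, 1.79 to 4.58), below the DDT arm, while the DDT arm kept the largest myeloid share in both cohorts. The 2 arms form 2 pairs over the cohorts, with which an exact two-sided test cannot go under 0.5, and the shares were not tested over samples.

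**Figure D1:**
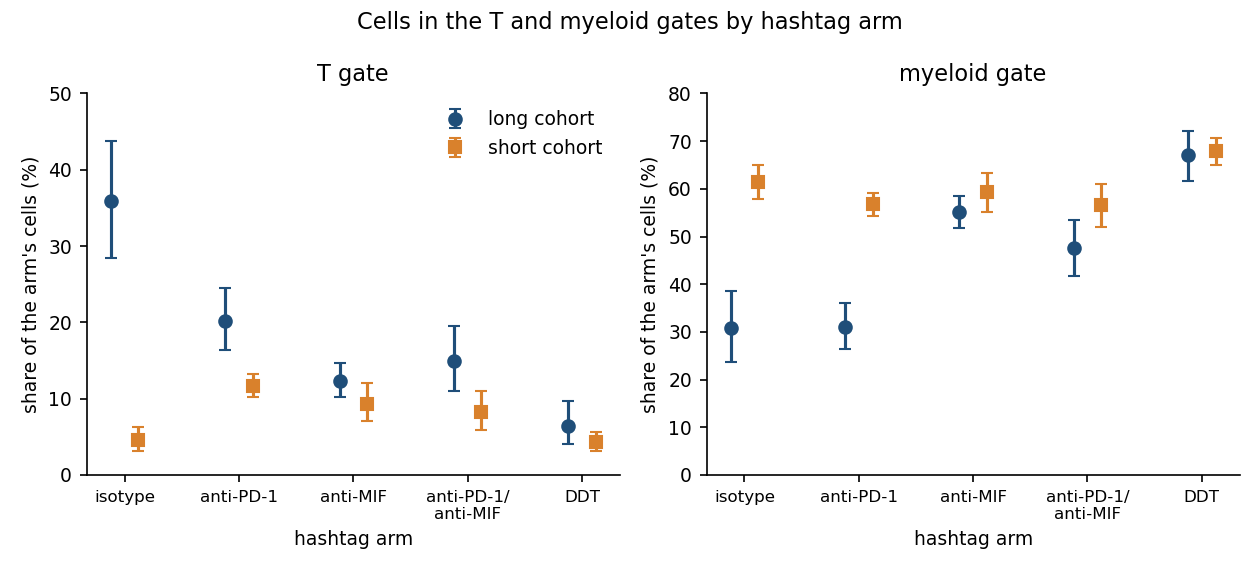
Share of each arm's cells (%) in the T gate and the myeloid gate, by hashtag arm, with 1 point per arm and cohort and bars for the 95% Clopper-Pearson interval. Without thinning, as plotted, the DDT arm has the lowest T share (6.46% and 4.30%) and the highest myeloid share (67.1% and 68.0%) in both cohorts, and after thinning the isotype arm of the short cohort has a lower T share (2.96% against 3.55%).

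Markers of other cell types were then summed over all cells of each arm. Lymphoid and dendritic lists had lower sums in the DDT arm, by differing amounts. In CPM the median log2 ratio over all genes tested was itself -0.23 (long) and -0.13 (short). The differences of the B cell and plasmacytoid dendritic cell lists in the long cohort were no larger than that. The sums carry no interval, and whether a list differed by more than the median gene was not tested. The T cell list summed to 505 against 211 CPM (long) and 230.1 against 136 CPM (short). The NK cell list stood at 183 against 48.9 CPM (long) and 259.8 against 233 CPM (short). B cell markers stood at 54.5 against 51.3 CPM (long) and 197 against 52.5 CPM (short), with Cd79a, a subunit of the B cell receptor, in 24 of 476 combination cells and 4 of 1071 DDT cells of the short cohort and in none of either arm in the long cohort. Plasmacytoid dendritic cell markers were at 192 against 165 CPM (long) and 474 against 149.7 CPM (short), with Siglech, a surface lectin of these cells, in 18 of 476 and 10 of 1071 cells (short) and 6 of 288 and 6 of 325 cells (long). For type 1 conventional dendritic cells the sums were 195 against 87.8 CPM (long) and 129 against 117 CPM (short), and for Ccr7 dendritic cells 535 against 346 CPM (long) and 175 against 117 CPM (short). A summed level alone does not separate fewer cells of a type from less RNA per cell, and which of these applied was not tested. Without thinning, a smaller share of DDT cells had a Cd79a or Siglech UMI in the short cohort. In the long cohort Siglech was found in 6 cells of each arm and Cd79a in none. The share of T-gate cells was smaller in the DDT arm in both cohorts.

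Neutrophil and fibroblast markers differed most, and both rest on few cells. The neutrophil list summed to 4099 against 83.7 CPM (long) and 185 against 753 CPM (short), so that the arms lay in opposite order in the 2 cohorts. S100a9, an abundant granulocyte alarmin, had 5040 UMIs in 14 combination cells of the long cohort, of which 3190 were in 1 cell, against 31 UMIs in 8 DDT cells. The short cohort had 2021 UMIs in 39 DDT cells and 144 in 5 combination cells. Ngp, a granule gene of immature neutrophils, had 1815 of its 2047 UMIs of the long combination sample in 1 cell.

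Fibroblast markers were at 298 against 0 CPM (long) and 147 against 0.445 CPM (short). All 320 UMIs of Dcn (decorin, a matrix proteoglycan) in the combination of the long cohort came from 1 cell, as did all 50 in the short cohort, and the DDT arm had 0 in both. Against the limit of 3 UMIs that a count of 0 allows, the DDT level of Dcn was at least 117-fold lower in the long and at least 39.9-fold lower in the short cohort. For Dcn, 1 cell in each combination sample is the whole of the difference. Sparc, another matrix gene of the list, had 270 UMIs in 6 combination cells of the long cohort, 153 of them in 1 cell, and 0 in the DDT arm. Endothelial markers were low, at 22.6 against 43 CPM (long) and 54.6 against 40.9 CPM (short), erythrocyte markers summed to under 1 CPM in both arms, and mast cell and basophil markers were at 0 in the DDT arm. The myeloid list (Lyz2, Itgam, Csf1r, Fcer1g, Tyrobp and Cd68) summed to 8485 against 11744 CPM (long) and 11381 against 12340.5 CPM (short), the highest of the 5 arms in each.

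**Figure D2:**
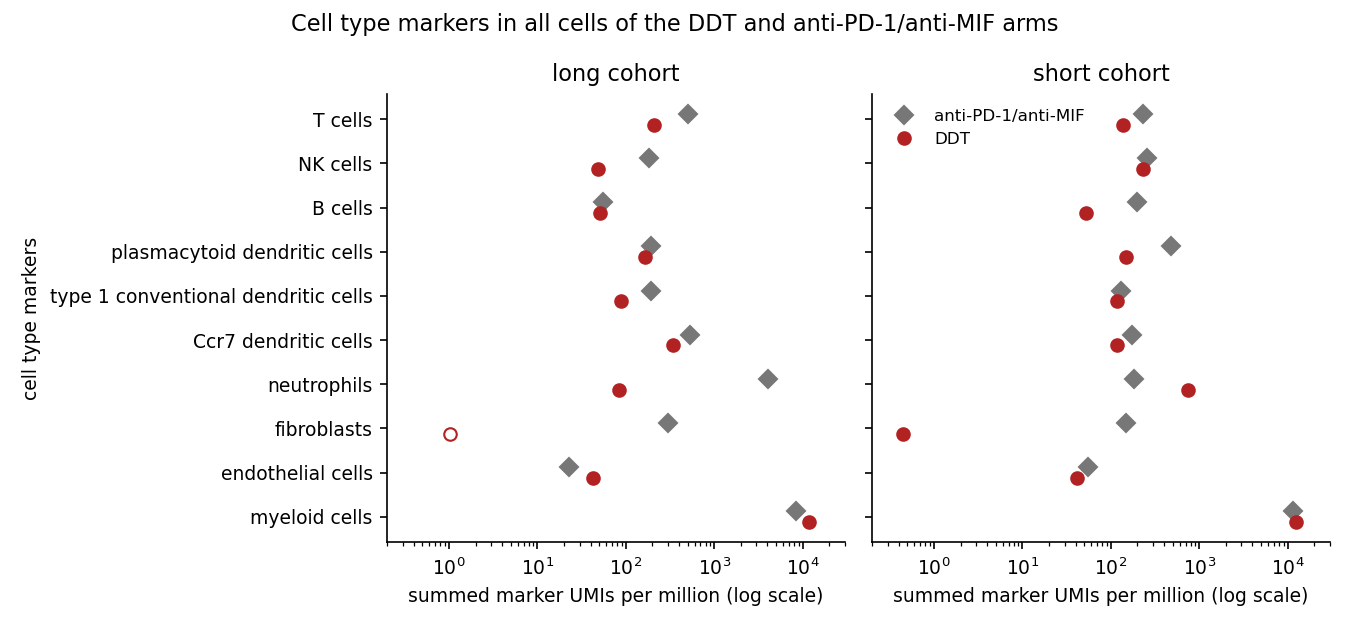
Summed level of each cell type's markers over all cells, in CPM on a log scale, in the combination (diamonds) and the DDT arm (circles) of each cohort, 1 sample per point. T cell sums are lower in the DDT arm in both cohorts (505 against 211 and 230 against 136 CPM), neutrophil sums lie in opposite order, and the open circle is the fibroblast sum of 0 in the DDT arm of the long cohort, drawn at the level of 3 UMIs.

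Genes were tested on UMIs summed per arm and cohort. The quasi-likelihood test of edgeR was fitted to all 10 arm samples with arm and cohort as terms, so that its error is the spread of arms between the 2 cohorts. Over all cells, edgeR called 0 of 11294 genes at an adjusted p under 0.05 (0.0% called), and the smallest adjusted p was 0.324. At an unadjusted p under 0.05 there were 1587 genes, of which 909 were higher (8.05%) and 678 lower (6.0%) in the DDT arm. DESeq2 on the same sums called 33, with 29 higher and 4 lower (Ccl12, Cx3cr1, Siglech and Pltp), and 1111 genes at an unadjusted p under 0.05. Leaving the DDT sample of the short cohort out of the edgeR fit gave 223 calls, and leaving out any other of the 4 samples compared gave 0. With only the 4 samples compared in the fit, edgeR called 289. Differences below are therefore given as levels and ratios per cohort. None passed the edgeR test when it was fitted to all 10 arm samples with its usual filter. Levels and ratios are in CPM, while log2 fold changes were normalized by the TMM method of edgeR, so they need not match.

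The MIF axis comes first. Transcripts of both ligands were close in the arms apart from Mif in the long cohort, at a ratio of 1.29 (1.21 to 1.38), while those of CD44 and CXCR4 were higher in the DDT arm in both cohorts. Mif (ENSMUSG00000033307, chromosome 10, 75859353 to 75860240, minus strand; positions are on GRCm38) was at 599 against 775 CPM (long) and 773 against 766 CPM (short) over all cells (log2 fold change 0.36 ± 0.184 (SE), adjusted p = 0.407). Ddt (ENSMUSG00000001666, chromosome 10, 75771230 to 75773414, minus strand) was at 70 against 58.9 CPM (long) and 58.8 against 50.2 CPM (short) (log2 fold change -0.06 ± 0.158 (SE), adjusted p = 0.885). The level of Ddt in the DDT arm was the lowest of the 5 arms in both cohorts, but the interval of its ratio to the combination included 1 in each, at 0.841 (0.68 to 1.04) and 0.854 (0.707 to 1.03). As log2 ratios in CPM these were -0.25 and -0.23, beside medians of -0.23 and -0.13 over all genes tested. In the long cohort 1 DDT cell held 22 of the 171 Ddt UMIs of its arm, and without the top cell of each arm the log2 ratio was -0.36 in place of -0.25. Cells with a Ddt UMI after thinning made up 9.21% and 8.76% of the DDT arm and 10.5% and 9.56% of the combination. Without thinning these shares were 28.3% and 22.4% against 40.3% and 23.5%, and in the myeloid gate 28.4% and 24.2% against 43.8% and 28.3%.

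Of the receptors, Cd74, which also encodes the invariant chain of MHC class II, was at 11995 against 10848 CPM (long) and 7602 against 6388 CPM (short) (log2 fold change -0.02 ± 0.289 (SE), adjusted p = 0.99). Its sign changed under 5 alternative settings and when either sample of the short cohort was left out. Cd44, an adhesion receptor for hyaluronan and a co-receptor of CD74, was at 379.9 against 659 CPM (long) and 637 against 988 CPM (short), that is 1.74-fold (95% interval 1.61 to 1.87) and 1.55-fold (95% interval 1.47 to 1.63) higher (log2 fold change 0.91 ± 0.261 (SE), adjusted p = 0.324). The isotype arm of the short cohort lay above it, at 1032 CPM. Cxcr4, the receptor of CXCL12, was at 101 against 265 CPM (long) and 257 against 357 CPM (short), the highest of 5 arms in both (log2 fold change 1.20 ± 0.414 (SE), adjusted p = 0.325). Over 15 alternative settings, the log2 fold change of Cd44 ran from 0.52 to 1.25 and that of Cxcr4 from 0.41 to 1.81. Both were also higher within the myeloid gate, Cd44 at 476 against 764 CPM (long) and 697 against 1083 CPM (short) and Cxcr4 at 138 against 285 CPM (long) and 271 against 365 CPM (short). After thinning, Cd44 was found in 75.2% against 57.4% and 78.7% against 65.2% of myeloid-gate cells (DDT against combination). Of the 7 genes listed for MIF and its receptors, 6 could be tested over all cells, 2 had an unadjusted p under 0.05 with higher levels (Cd44 and Cxcr4), beside 8.05% of all genes tested, and the median log2 fold change was 0.17 beside -0.02 over all genes tested.

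Among the other genes that DESeq2 called over all cells, Vegfa, which encodes the vascular growth factor VEGF-A, was at 89.2 against 366 CPM (long) and 209.5 against 304 CPM (short) (log2 fold change 1.57 ± 0.387 (SE), adjusted p = 0.324 in edgeR and 0.00953 in DESeq2). Il1rn, the antagonist of the interleukin-1 receptor, was at 90.3 against 492 CPM (long) and 159 against 263 CPM (short), and Cacna1d, a calcium channel subunit, at 18.4 against 105 CPM (long) and 51.8 against 89.4 CPM (short). Hcar2, a receptor for hydroxybutyrate and niacin, had the smallest unadjusted p of edgeR over all cells (7.9e-05; adjusted p = 0.324), at 13.9 against 63 CPM (long) and 17.7 against 41.4 CPM (short). All of these were higher in the DDT arm in both cohorts, with the larger ratio in the long cohort. Their log2 fold changes depended on single samples: with 1 sample left out, that of Vegfa ran from 0.68 (without the DDT sample of the long cohort) to 2.26 (without that of the short cohort), and in the same way Il1rn ran from 0.85 to 2.69, Cacna1d from 0.87 to 2.82 and Hcar2 from 1.43 to 2.33. The sums over all cells mix the larger myeloid share of the DDT arm with the level per cell, and the myeloid gate was therefore examined by itself.

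The myeloid gate held 2159416 UMIs in the DDT arm and 1545613 in the combination in the long cohort, against 5208290 and 1865438 in the short cohort. The median depth per cell was 10852 against 9437 UMIs (long) and 6473 against 6584 UMIs (short). In this gate edgeR called 0 of 9822 genes (0.0%), with 822 at an unadjusted p under 0.05 (421 higher, 4.29%, and 401 lower, 4.08%) and a smallest adjusted p of 0.587. DESeq2 called 1 gene, Ccl12, and gave 498 at an unadjusted p under 0.05. Without the DDT or the combination sample of the short cohort, edgeR called 3 and 6 genes. Neutrophil markers in the gate summed to 6370.3 against 59.3 CPM (long) and 96.5 against 299 CPM (short), with 4505 UMIs of S100a9 in 10 combination cells of the long cohort, of which 3190 were in 1 cell. T cell and fibroblast markers in the gate were under 4 CPM in both arms.

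Ccl12 (ENSMUSG00000035352, chromosome 11, 82101845 to 82103400, plus strand), a chemokine that attracts monocytes through CCR2, was lowest in the DDT arm. In the long cohort its level in the myeloid gate was 747 CPM under isotype, 448 under anti-PD-1, 332 under anti-MIF, 312 in the combination and 76.4 in the DDT arm. The isotype level came from 49 cells, and 1 of them held 216 of the 366 Ccl12 UMIs. The levels of the short cohort were 147 CPM under isotype, 162 under anti-PD-1, 76.6 under anti-MIF, 254 in the combination and 46.8 in the DDT arm. In each cohort the DDT sample was the lowest of the 5 arms. It lay 4.09-fold (95% interval 3.42 to 4.91) under the combination in the long cohort. For the short cohort this was 5.41-fold (95% interval 4.63 to 6.34). Across cohorts, the long DDT sample (76.4 CPM) was close to the short anti-MIF sample (76.6 CPM). In edgeR the log2 fold change was -2.22 ± 0.411 (SE), with adjusted p = 0.587. The DESeq2 adjusted p was 7.6e-05, and over 17 alternative settings the adjusted p ran from 3.6e-17 to 1, with 2 under 0.05.

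Part of the Ccl12 difference was carried by single cells. In the combination, 1 cell held 151 of 483 UMIs in the long and 305 of 473 in the short cohort. Without the cell with most UMIs in each arm, the log2 ratio was -1.68 in place of -2.03 in the long and -1.53 in place of -2.44 in the short cohort. Cells with a Ccl12 UMI after thinning were 9.17% (5.69 to 13.8) of the DDT and 19.1% (12.9 to 26.7) of the combination myeloid gate in the long cohort, and 5.44% (3.90 to 7.36) and 8.33% (5.30 to 12.3) in the short cohort, where the intervals overlap.

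Cx3cr1 (ENSMUSG00000052336, chromosome 9, 119901616 to 120069879, minus strand), the fractalkine receptor of resident and patrolling myeloid cells, was also lowest in the DDT arm, and this did not rest on a single cell. Its levels in the myeloid gate of the long cohort were 96 CPM under isotype, 100.3 under anti-PD-1, 183 under anti-MIF, 160.5 in the combination and 45.8 in the DDT arm. The short cohort gave 85.6 CPM under isotype, 73.9 under anti-PD-1, 156 under anti-MIF, 138 in the combination and 73.2 in the DDT arm. The DDT level was 3.5-fold (95% interval 2.76 to 4.46) and 1.88-fold (95% interval 1.6 to 2.21) below the combination (log2 fold change -1.24 ± 0.237 (SE), adjusted p = 0.587), although the anti-PD-1 arm of the short cohort lay within 1 CPM of it. Without the top cell of each arm, the log2 ratios were -1.90 and -0.83. Thinned cells with a UMI made up 5.05% (2.55 to 8.85) against 18.4% (12.3 to 25.9) in the long and 12.8% (10.5 to 15.5) against 18.2% (13.7 to 23.4) in the short cohort.

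C1q genes, which encode the first component of complement and mark tissue-type macrophages, were lower in the DDT arm. C1qa was at 1078 against 479 CPM (long) and 287 against 169 CPM (short) (log2 fold change -0.90 ± 0.349 (SE), adjusted p = 0.587), C1qb at 1616 against 902 CPM (long) and 577 against 339 CPM (short) and C1qc at 897 against 466 CPM (long) and 285 against 164 CPM (short). For each of the 3 chains the DDT level was the lowest of 5 arms in both cohorts. In the long cohort, the share of myeloid-gate cells with a C1qb UMI was also lower, at 22.5% (17.1 to 28.6) against 41.2% (32.8 to 49.9) after thinning. The shares of the short cohort were 13.2% (10.9 to 16) and 13.6% (9.74 to 18.4), with overlapping intervals. For reference, 0 of 17 and 0 of 40 thinned T-gate cells of the DDT arm had a C1qb UMI.

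Other macrophage genes of this list followed in part. Apoe, the lipid carrier apolipoprotein E, was at 1099.9 against 529 CPM (long) and 496 against 405 CPM (short), and Ms4a7, a membrane protein of macrophages, at 71.2 against 46.3 CPM (long) and 49.9 against 16.5 CPM (short). Of the 12 listed C1q and lipid-associated macrophage genes, all were tested, 11 had a negative and 1 a positive log2 fold change, and the unadjusted p was under 0.05 for 2, both lower, where 4.08% of all genes tested in the gate were. The list's median was -0.74 beside -0.02 over all genes tested in the gate. The level of 8 was lower and of 1 higher in both cohorts. Summed over the list, the level was 5551 against 3068 CPM (long) and 2388 against 1594 CPM (short), and the other 3 arms held 4685 to 13423 CPM and 2226 to 3361 CPM. Cd72, an inhibitory receptor of the lectin family, was at 197 against 96.3 CPM (long) and 68.1 against 31.1 CPM (short) (log2 fold change -1.02 ± 0.27 (SE), adjusted p = 0.587).

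Spp1 was lower and Vegfa, Ptgs2 and other genes of the hypoxia list higher in the DDT myeloid gate. Spp1, which encodes osteopontin, was at 415 against 165 CPM (long) and 482 against 270.0 CPM (short). The anti-PD-1 arm of the short cohort was below the DDT arm, at 191 CPM. In the combination 1 cell held 246 of the 899 Spp1 UMIs of the short cohort, and without the top cell of each arm the log2 ratio there was -0.47 in place of -0.84. The share of cells with an Spp1 UMI was lower in the long cohort (12.4% against 22.8% after thinning) and not in the short cohort (13.2% against 11%).

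Vegfa (chromosome 17, 46016993 to 46032369, minus strand) was higher. In the long cohort it stood at 172 CPM under isotype, 112 under anti-PD-1, 135 under anti-MIF, 122 in the combination and 383 in the DDT arm. After short treatment it stood at 248 CPM under isotype, 225 under anti-PD-1, 220.2 under anti-MIF, 205 in the combination and 279 in the DDT arm. The DDT arm was the highest of 5 in both cohorts, 3.15-fold (95% interval 2.68 to 3.71) and 1.36-fold (95% interval 1.22 to 1.53) above the combination (log2 fold change 1.19 ± 0.319 (SE), adjusted p = 0.587). Cells with a Vegfa UMI made up 35.8% (29.4 to 42.5) against 14% (8.63 to 21) in the long cohort after thinning, and 26.6% (23.4 to 30) against 24.2% (19.2 to 29.9) in the short cohort, where the intervals overlap.

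Ptgs2, which encodes the prostaglandin synthase COX-2, was at 102 against 425 CPM (long) and 202 against 261 CPM (short) (log2 fold change 1.41 ± 0.396 (SE), adjusted p = 0.587), and the anti-PD-1 arm of the short cohort, at 336 CPM, was above the DDT arm. Without the DDT sample of the long or of the short cohort, the log2 fold change was 0.43 or 2.15 for Ptgs2 and 0.47 or 1.78 for Vegfa. Hilpda, a lipid droplet protein induced by low oxygen, was at 171 against 281 CPM (long) and 132 against 235 CPM (short), and Ndrg1, another gene induced by low oxygen, at 89.3 against 197 CPM (long) and 128 against 182 CPM (short). Of the 12 genes of the hypoxia list, 11 were tested, 9 had a positive and 2 a negative log2 fold change, and an unadjusted p under 0.05 was reached by 3 higher and 2 lower, beside 4.29% and 4.08% of all genes tested in the gate. The median was 0.50. Il1b, the cytokine interleukin-1 beta, was at 1979.8 against 3256 CPM (long) and 1774 against 2281 CPM (short), with 2 other arms above the DDT arm in the short cohort. Entpd1, which encodes the ectonucleotidase CD39, was at 113 against 261 CPM (long) and 169 against 211 CPM (short), and Havcr2, which encodes TIM-3, at 172 against 297 CPM (long) and 196 against 240.0 CPM (short).

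Cd274, the gene of PD-L1, was higher in the DDT myeloid gate in the long cohort and by less in the short cohort. It was at 192 against 473 CPM (long) and 254 against 300.5 CPM (short), 2.47-fold (95% interval 2.17 to 2.82) and 1.19-fold (95% interval 1.07 to 1.32) higher (log2 fold change 0.86 ± 0.377 (SE), adjusted p = 0.592). Over 17 alternative settings this log2 fold change ran from 0.39 to 1.29. The anti-PD-1 arm of the short cohort was higher still, at 389 CPM. The share of thinned cells with a UMI was 46.8% (40.0 to 53.6) against 28.7% (21.3 to 37.1), and 35.3% (31.8 to 38.9) against 27.3% (22.0 to 33.1).

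**Figure D3:**
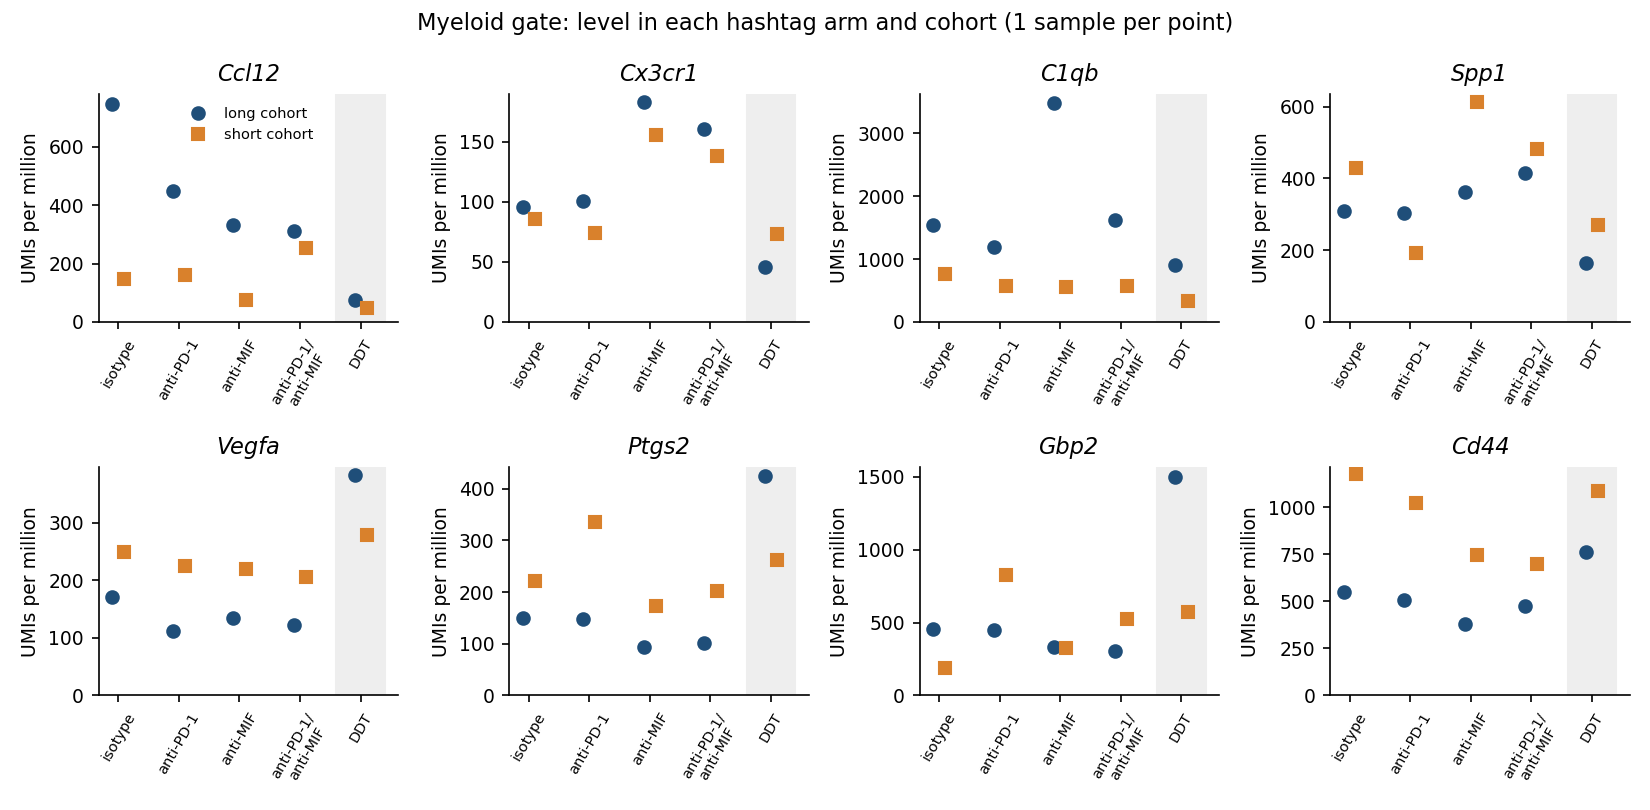
Level of 8 genes in the myeloid gate, in CPM, by hashtag arm and cohort, with 1 sample per point and the DDT arm shaded. Ccl12, Cx3cr1 and C1qb are lowest and Vegfa highest in the DDT arm in both cohorts, while Gbp2 is far above the other arms in the long cohort only (1502 CPM, against 305 to 457 CPM).

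Genes with the smallest unadjusted p in this gate were mostly of few UMIs. Cd36, a scavenger receptor for lipids, was at 4.53 against 15.7 CPM (long) and 8.04 against 32.1 CPM (short), from 7 against 34 and 15 against 167 UMIs, and the membrane protein gene Lsmem1 at 3.23 against 10.7 CPM (long) and 3.22 against 16.7 CPM (short). Pnrc1, a nuclear receptor coactivator, was at 173 against 387 CPM (long) and 148 against 258 CPM (short). Lower in both cohorts were Wwox, an oxidoreductase gene (48.5 against 21.8 CPM and 80.4 against 40.5 CPM), Srm, the spermidine synthase gene (41.4 against 7.41 CPM and 18.2 against 8.83 CPM), and Mrps5, a mitochondrial ribosomal protein gene (31.7 against 7.87 CPM and 24.1 against 9.79 CPM). Ccdc162 was at 5.18 against 15.7 CPM (long) and 2.68 against 11.5 CPM (short). Fscn1, an actin bundler of mature dendritic cells, had all of its 68 UMIs of the long DDT sample in 1 cell, and the 212 UMIs of Retnla, a gene of alternatively activated macrophages, in the short DDT sample were also in 1 cell.

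Interferon-induced genes were higher in the DDT arm in the long cohort, and near the combination or below it in the short cohort. Whether the cohorts differed was not tested. Gbp2, a guanylate-binding protein induced by interferon-gamma, was at 457 CPM under isotype, 451 under anti-PD-1, 336 under anti-MIF, 305 in the combination and 1502 in the DDT arm in the long cohort, 4.92-fold (95% interval 4.47 to 5.43) above the combination. The levels of the short cohort were 187 CPM under isotype, 830.2 under anti-PD-1, 328 under anti-MIF, 524 in the combination and 571 in the DDT arm, with a ratio of 1.09 (1.01 to 1.17). After thinning, 66.1% (59.4 to 72.3) of DDT cells and 23.5% (16.7 to 31.6) of combination cells of the long cohort had a Gbp2 UMI, against 42.4% in both arms of the short cohort. Cxcl10, a chemokine for T cells, was at 475 against 1853 CPM (long) and 932 against 953 CPM (short). Cxcl9, another ligand of the same receptor, was at 221 against 792 CPM (long) and 541 against 384 CPM (short).

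Of the 14 genes listed for the interferon-gamma response, 13 were tested, all 13 had a positive log2 fold change (median 0.90), and 8 had an unadjusted p under 0.05, beside 4.29% of all genes tested in the gate. All 13 were higher in the long cohort, and 8 were higher and 5 lower in the short cohort, with median log2 ratios of 1.69 and 0.03. Summed, the list stood at 2002 against 7246 CPM (long) and 3829.7 against 3748 CPM (short), and the DDT arm was the highest of 5 in the long and the 3rd in the short cohort. The type I interferon list, of which 12 of 13 genes were tested, was higher for 12 in the long cohort and lower for 11 in the short cohort, with median log2 ratios of 1.22 and -0.33. Isg15, a ubiquitin-like protein induced by interferon, was at 1155 against 2934 CPM (long) and 1661 against 1269.7 CPM (short). An unadjusted p under 0.05 was reached by 1 gene of that list, which was higher, beside the same 4.29%.

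Among antigen presentation genes, MHC class I genes were higher and most class II genes lower in the DDT arm in the long cohort. In the short cohort most genes of both classes were lower. Whether the classes differed was not tested. The 12 tested MHC class I genes (heavy chains, peptide transporters and immunoproteasome subunits) were all higher in the DDT arm in the long cohort (median log2 ratio 0.71), and 3 were higher and 9 lower in the short cohort (median -0.10), with 2 higher at an unadjusted p under 0.05, beside 4.29% of all genes tested. The 12 MHC class II genes were lower in both cohorts for 9 and higher in both for 1, with median log2 ratios of -0.19 and -0.36 and none at an unadjusted p under 0.05. H2-Aa, an MHC class II alpha chain, was at 3375 against 3011 CPM (long) and 2707 against 1934 CPM (short).

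Of the 9 inflammatory monocyte genes listed, 3 were higher and 3 lower in both cohorts, and 3 lay in different directions. Ly6c2, the surface antigen of inflammatory monocytes, was at 1317 against 2976 CPM (long) and 2441 against 1827 CPM (short), and Plac8, a cytosolic protein abundant in these cells, at 2175 against 3817 CPM (long) and 4107 against 4509 CPM (short). None of the 9 had an unadjusted p under 0.05. Glycolysis genes were all higher in the long cohort (12 of 12, median log2 ratio 0.64) and 8 of 12 in the short cohort (median 0.03), and 5 were higher at an unadjusted p under 0.05, beside 4.29% of all genes tested in the gate. Pfkp, a phosphofructokinase, was at 135 against 264 CPM (long) and 209.6 against 239.6 CPM (short), and Pkm, pyruvate kinase, at 1301 against 2011 CPM (long) and 990.1 against 976 CPM (short). Over all cells, all 12 glycolysis genes were higher in both cohorts at an unadjusted p under 0.05, where 8.05% of all genes tested were.

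Cell cycle genes had lower levels in the DDT myeloid gate in the long cohort. The 13 listed genes all had a negative log2 fold change (median -2.04; by cohort, with genes at 0 UMIs set to 3, median log2 ratios of -3.98 and -0.34) and 9 had an unadjusted p under 0.05, where 4.08% of all genes tested were lower at that level. The summed level was 433 against 47.2 CPM (long) and 86.3 against 86.4 CPM (short), with hardly any difference in the short cohort. Mki67, a marker of dividing cells, had 54 UMIs in 12 of 137 combination cells and 6 UMIs in 5 of 218 DDT cells of the long cohort, and 13 UMIs in 7 of 269 and 24 in 16 of 728 cells of the short cohort. Over all cells the list stood at 411 against 119 CPM (long) and 180.1 against 134 CPM (short), the lowest of 5 arms in both. Immediate early and heat shock genes, which respond to stress and to tissue dissociation, summed to 8451 against 9735 CPM (long) and 6677 against 8323 CPM (short), the highest of 5 arms in both cohorts, with 6 of 12 genes higher in the long and 11 of 12 in the short cohort, and Fos, an early response transcription factor, at 1694 against 2303 CPM (long) and 897 against 1356 CPM (short).

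**Figure D4:**
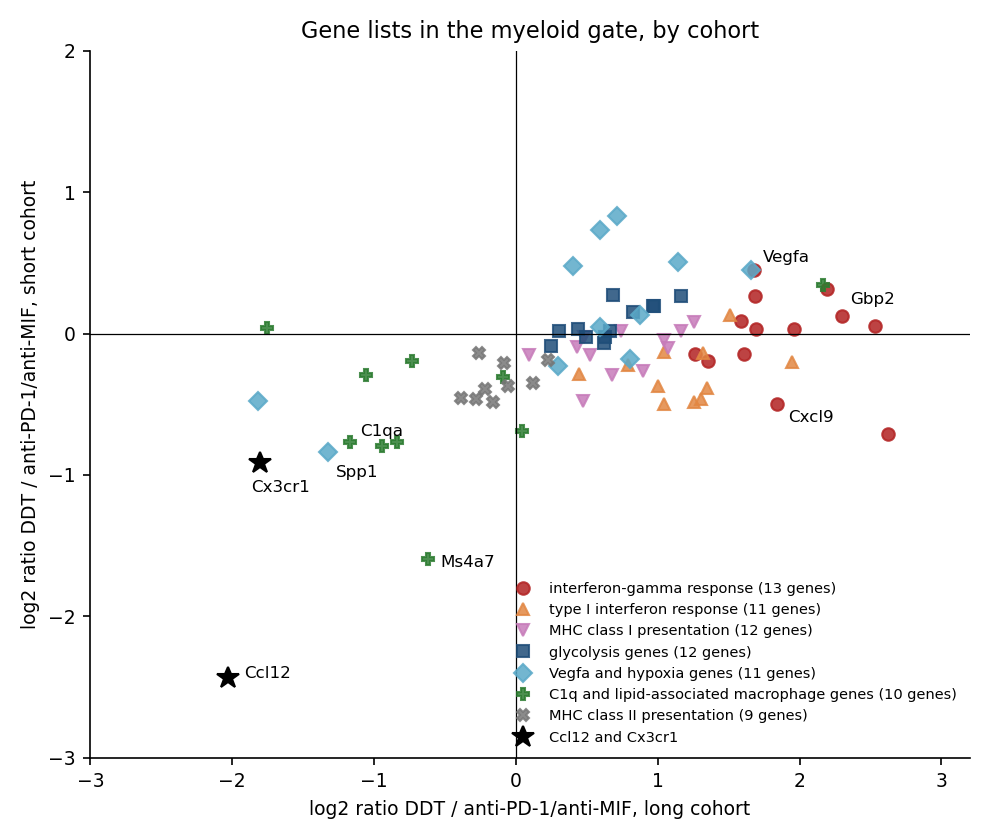
Log2 ratio of the DDT arm to the combination in the myeloid gate, long cohort on the x axis and short cohort on the y axis. Points are the genes of 7 gene lists with at least 100 UMIs over both arms in each cohort, and stars are Ccl12 and Cx3cr1. Interferon-gamma genes (circles) lie to the right and near 0 on the y axis (medians 1.69 and 0.03 over all 13 genes tested), while Ccl12, Cx3cr1 and most C1q and lipid-associated genes (green plus signs) lie in the lower left quadrant.

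The T gate held 21 DDT and 43 combination cells in the long cohort (113595 and 270415 UMIs) and 46 and 39 in the short cohort (216593 and 163515 UMIs), so few cells stand behind each value. A Lyz2 UMI was found in 2 of 21 and 8 of 46 DDT cells and in 4 of 43 and 5 of 39 combination cells of the gate, and C1qb in no DDT cell. In this gate edgeR called 0 of 4840 genes (0.0%), with 256 at an unadjusted p under 0.05 (144 higher, 2.98%, and 112 lower, 2.31%) and a smallest adjusted p of 0.154. DESeq2 called 0 and gave 79 at an unadjusted p under 0.05. The level of Cd3e, used for the gate, was at 1457 against 1461 CPM (long) and 887 against 969.6 CPM (short).

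Pdcd1, the gene of PD-1, had its highest level of the 5 arms in the DDT T gate in both cohorts. It was at 477 against 704 CPM (long) and 165 against 457 CPM (short), 1.48-fold (95% interval 1.1 to 1.97) and 2.77-fold (95% interval 1.79 to 4.41) above the combination (log2 fold change 0.88 ± 0.288 (SE), adjusted p = 0.89). By the share of cells with a UMI after thinning, the DDT arm was the lowest of 5 in the long and the highest in the short cohort. The share was 9 of 17 (52.9%) against 24 of 42 (57.1%) in the long cohort and 24 of 40 (60%, 43.3 to 75.1) against 7 of 34 (20.6%, 8.70 to 37.9) in the short cohort, so the intervals of the arms were apart in the short cohort and overlapped in the long cohort. Of 10 genes listed for the PD-1 pathway and inhibitory receptors, 9 had a positive log2 fold change (median 0.46 beside -0.01 over all genes tested) and 1 a higher level at an unadjusted p under 0.05, beside 2.98% of all genes tested in the gate.

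Of the 15 CD8 and cytotoxic genes listed, 13 had a positive log2 fold change and none an unadjusted p under 0.05. By cohort, 4 were higher and 2 lower in both, and the other 9 lay in different directions. Gzmb, the protease granzyme B, was at 2437 against 1963 CPM (long) and 489 against 1085 CPM (short), and Nkg7, a granule membrane protein, at 3635 against 3178 CPM (long) and 1914 against 2719 CPM (short). Ccl5, a chemokine of effector T cells, was lower in both, at 4534 against 3556 CPM (long) and 2721 against 2276 CPM (short). The list of 15 CD8 and cytotoxic genes had a median log2 ratio of -0.19 in the long and 0.62 in the short cohort. Cd8a, the CD8 alpha chain, was at 1117 against 1514 CPM (long) and 587 against 683 CPM (short). Foxp3, the transcription factor of regulatory T cells, was found in 4 of 21 DDT and 0 of 43 combination cells in the long cohort, and the short cohort had 2 of 46 and 4 of 39.

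The genes with the smallest unadjusted p in the T gate were seen in differing numbers of cells. Myo10, an unconventional myosin, was at 22.2 against 132 CPM (long) and 24.5 against 139 CPM (short) (log2 fold change 2.54 ± 0.445 (SE), adjusted p = 0.154), from 4 and 10 DDT cells and 4 and 2 combination cells. Nr4a3, a nuclear receptor induced by antigen receptor signals, was at 44.4 against 167 CPM (long) and 85.6 against 259 CPM (short) (log2 fold change 1.66 ± 0.419 (SE), adjusted p = 0.718), from 8 and 16 DDT cells and 8 and 7 combination cells. Pde4d, a cAMP phosphodiesterase, was at 70.3 against 194 CPM (long) and 67.3 against 231 CPM (short), and Hilpda at 137 against 405 CPM (long) and 73.4 against 277 CPM (short). Tnfrsf9, the costimulatory receptor 4-1BB, was at 374 against 933 CPM (long) and 312 against 508 CPM (short), from 15 of 21 and 31 of 46 DDT cells, and Il7r, the receptor of interleukin-7, at 96.1 against 335 CPM (long) and 189.6 against 272 CPM (short). These were higher in the DDT arm in both cohorts.

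Lower in the DDT T gate in both cohorts were Foxp1, a transcription factor of quiescent T cells, at 107 against 52.8 CPM (long) and 409.7 against 157 CPM (short), Cysltr2, a leukotriene receptor, at 74 against 26.4 CPM (long) and 141 against 36.9 CPM (short), and Rbm8a, a subunit of the exon junction complex, at 122 against 52.8 CPM (long) and 171 against 55.4 CPM (short). Aff3, a nuclear protein of lymphocytes, was at 7.4 against 0 CPM (long) and 171 against 9.23 CPM (short), with 2 and 0 UMIs in the long cohort. Lef1, a transcription factor of naive T cells, went apart, at 25.9 against 35.2 CPM (long) and 287 against 41.6 CPM (short), from 7 against 4 and 47 against 9 UMIs. Its direction in the long cohort rested on single cells, with a log2 ratio of -0.075 in place of 0.44 without the top cell of each arm. The 12 T cell receptor complex genes summed to 6875 against 7624 CPM (long) and 5027 against 5605 CPM (short), with a median log2 fold change of 0.12. Cd74 was at 96.1 against 158 CPM (long) and 42.8 against 282 CPM (short), and 37 of the 61 UMIs of the DDT arm in the short cohort were in 1 cell. In the long cohort 1 DDT cell held 9 of 18 Cd74 UMIs. Without the top cell of each arm, the log2 ratio there was -0.050 in place of 0.72.

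Counts of genes past a fixed size describe how far the cohorts differ. Among genes with at least 100 UMIs over both arms, the DDT level over all cells was at least 2-fold higher for 235 of 5842 (4.02%) and at least 2-fold lower for 286 (4.9%) in the long cohort. For the short cohort the counts were 36 of 7250 (0.497%) and 89 (1.23%). Of 5802 genes measured in both, 7 (0.121%) were 2-fold higher and 21 (0.362%) 2-fold lower in both cohorts, 4 passed in opposite directions, and 3869 had the same sign.

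In the myeloid gate 211 of 4337 genes (4.87%) were at least 2-fold higher and 154 (3.55%) lower in the long cohort, against 27 (0.438%) and 14 (0.227%) of 6163 in the short cohort. Both cohorts passed together for 3 higher (0.0695%) and 2 lower (0.0463%) of 4315 genes, 6 were opposite, and 2564 had the same sign. In the T gate 12 of 532 (2.26%) were higher and 16 (3.01%) lower in the long cohort, with 23 (4.49%) and 2 (0.391%) of 512 after short treatment, and 1 (0.233%) and 0 (0.0%) of 430 in both. The long cohort thus held most genes of this size in the myeloid gate and over all cells. In CPM, the median log2 ratio over all genes tested was -0.23 in the long and -0.13 in the short cohort over all cells, and -0.10 and -0.06 in the myeloid gate.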

How the data were processed

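Single cells of YUMMER1.7 tumors were captured with 5′ chemistry and hashtag antibodies. Per the submitters' processing notes, the authors used Cell Ranger 7.1.0 with build mm10 and Seurat 5.1.0, and deposited filtered matrices of UMI counts per gene or hashtag and barcode. The study's methods state that doublets and negatives were dropped after demultiplexing. The deposited matrices still hold barcodes without a clear hashtag, which the hashtag ratio left out here. No doublet caller based on gene expression was run, and HTODemux, which works on the hashtags, was run only as an alternative assignment.

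Counts were summed per arm, cohort and gate and fitted with edgeR 4.0.16 (quasi-likelihood test, TMM, filterByExpr, terms for arm and cohort, 10 arm samples, Benjamini-Hochberg adjustment at 0.05). DESeq2 1.42.0, HTODemux of Seurat 5.3.0, other hashtag ratios, cell filters and gates, no cohort term, and leaving out each sample were alternatives. Nothing states that arms came from separate cultures or cages, so p-values measure the spread between these arm samples, which may be technical. The cohort is the block of the design, since the arms of a cohort shared 1 library, and each arm has 1 sample per cohort. Exact intervals used scipy 1.17.1. The statistics were tested on simulated data first, and how many changed genes they recovered there is not reported here. Positions are those of the GENCODE annotation of GRCm38.

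Genes named were the MIF receptors, Pdcd1 and Cd274, the 10 with the smallest unadjusted p and the same direction in both cohorts, the 6 with the largest ratios in each cohort, 2 by level and 2 by change in each gene list, and the gate genes. Of these the text gives a part. Pltp, Hcar2, Hilpda, Ndrg1, Entpd1, Foxp3, Retnla, Ngp and single-cell counts were singled out after their values were seen. Members and lists were chosen with earlier results of these data known. Some genes of the lists are not reported here by name.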

Additional observations from a re-analysis of the deposited data

Results flagged for a closer look

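Of 71 gene values checked, 8 lay in opposite directions in the cohorts with both counting intervals on their side of equality. Whether the cohorts differed was not tested, since each arm has 1 sample per cohort. Values are log2 ratios of the DDT arm to the combination, long cohort first. Over all cells, S100a8 was at -6.37 and 2.49 and S100a9 at -7.47 and 2.55, granulocyte genes of which 3409 of 5541 and 3190 of 5040 UMIs of the long combination sample were in 1 cell. In the T gate, Gzmb was at -0.31 and 1.15 and Nkg7 at -0.19 and 0.51. The counting intervals treat UMIs as independent, although 1 cell held 88 of 223 Gzmb UMIs of the long DDT sample and 1 cell 56 of 235 of the short one. Without the top cell of each arm, Gzmb was at -0.65 and 1.17 and Nkg7 at -0.20 and 0.59. In the myeloid gate, Mif was at 0.15 and -0.17, Cxcl9 at 1.84 and -0.49, Isg15 at 1.34 and -0.39, and Ly6c2 at 1.18 and -0.42.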

How the results depend on the processing

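The lower T share and higher myeloid share of the DDT arm against the combination kept their direction in both cohorts under every alternative of hashtag ratio, cell filter, gate and thinning that was run. The number of genes called by edgeR did not hold. Over all cells (0 called) it was 33 with DESeq2, 333 with no filter on low counts and 289 with only the 4 samples compared, and 0 to 223 when 1 sample was left out. In the T gate (0) it was 34 with no filter and 1 with HTODemux. In the myeloid gate (0) it was 1 with DESeq2, 214 with no filter, and 0 to 6 when 1 sample was left out. Leaving out a sample leaves 1 arm with a single sample, whose spread is assumed to be that of the others. Without the cohort as replicate block 0 genes were called in all 3 sets of cells. The cause of these changes was not tested.

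Some log2 fold changes changed sign, both small and large ones. Over all cells, Ddt (-0.06) was 0.15 after thinning and -0.12 to 0.014 with 1 sample left out. Cd74 (-0.02) was 0.0075 with no filter, 0.0072 without the replicate block, 0.029 with a hashtag ratio of 5, 0.0057 with a mitochondrial limit of 10%, 0.015 after thinning and -0.13 to 0.11 with 1 sample left out. With 1 sample left out, S100a8 ran from -5.21 to 2.07, S100a9 from -6.29 to 2.07 (both without the long combination sample) and Cd79a from -9.45 to 6.96. In the T gate, Cd3e (0.0074) was -0.016 without the block, -0.00050 with the 4 samples, -0.017 and -0.062 with ratios of 2 and 5, -0.026 with HTODemux, -0.13 with a gate of 1 UMI and -0.040 to 0.093 with 1 sample left out. Gzmb was -0.0083 without the block, -0.14 with a ratio of 5 and -0.34 to 1.06 with 1 left out, and Nkg7 -0.088 with a gate of 1 UMI and -0.19 to 0.39. In the myeloid gate, Mif was -0.072 with the stricter gate and -0.038 to 0.23 with 1 left out, and Ddt 0.042 after thinning. With 1 left out, Cd74 ran from -0.31 to 0.094, Cxcl9 from -0.090 to 1.71, Isg15 from -0.12 to 1.19, Ly6c2 from -0.16 to 1.02 and H2-Aa from -0.44 to 0.0070. The median over all genes of this gate was 0.0043 with DESeq2 size factors. Of 300 refits of 20 named genes over all cells, 44 passed the threshold and 12 changed sign, of 254 in the T gate 5 and 14, and of 611 in the myeloid gate 23 and 9.

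Counts of genes past 2-fold moved with the rule. At 3-fold, at least 50 UMIs and at least 200 UMIs they were 124, 902 and 292 (long) and 38, 267 and 54 (short) over all cells, 6, 84 and 11 and 2, 76 and 9 in the T gate, and 84, 631 and 215 and 12, 130 and 18 in the myeloid gate. Without thinning, the share of myeloid-gate cells with a C1qb UMI was higher in the DDT arm by 0.385 points in the short cohort (17.9% against 17.5%), and lower after thinning. Leaving out the top cell of each arm, an alternative chosen after seeing the data, gave log2 ratios of 0.0062 for Mif over all cells (short), and -0.025 for Cd3e, -0.075 for Lef1 and -0.050 for Cd74 in the T gate (long). In the T gate, 21 cells stand for the DDT arm of the long cohort.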
